A study of Mus musculus with 6 samples.

Results

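Heterochromatin is the compact, largely silent part of the genome, and 10 genes whose proteins write, read or maintain its marks were followed here in mouse embryonic fibroblasts with and without the telomere protein Rap1. They are Suv39h1, Suv39h2, Setdb1 and Trim28, Cbx1, Cbx3 and Cbx5, and Dnmt1, Dnmt3a and Dnmt3b. The members were every non-control probe that carries a RefSeq accession of one of the 10 genes, which gave 17 of the 41174 probes on the array. All 17 probes were well above background on all 6 arrays. Each gene was represented by its probe of highest mean, so the members supplied 10 of the 19657 features tested.

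RNA was taken from mouse embryonic fibroblasts (MEFs), 3 samples labelled wild type and 3 labelled Rap1 knockout, and hybridised to one-colour (Cy3) Agilent arrays, 1 array a sample. Both groups had been infected with the SV40 large T antigen, which inactivates p53 and the retinoblastoma proteins, and with Cre recombinase, and both were grown in DMEM with puromycin. In the knockout, Cre removes exon 3 of the floxed Rap1 gene (Terf2ip), an allele made in 129Sv/Pas embryonic stem cells and bred to C57BL/6J mice. The labels used here do not say whether the wild-type cells carry a floxed allele, the promoter that drives the infected Cre, the embryos' age, or whether the 3 samples of a group are separate cultures or embryos. The p-values therefore measure only the spread between these samples, which may be technical.

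Constitutive heterochromatin at centromeres and telomeres is marked by trimethylation of lysine 9 of histone H3 (H3K9me3). SUV39H1 and SUV39H2 place that mark on pericentromeric and telomeric repeats, and SETDB1 places it on silenced transposons, where the corepressor TRIM28 (KAP1) recruits it. The HP1 proteins HP1beta (Cbx1), HP1gamma (Cbx3) and HP1alpha (Cbx5) bind the mark through their chromodomain and bring further silencing factors. DNMT1 copies CpG methylation onto new DNA strands after replication, and DNMT3A and DNMT3B add it to unmethylated DNA.

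The promoter sequences of the members were read from RefSeq windows on GRCm38.p6 that run from 250 bases before to 50 bases after a transcript start. All 10 genes matched, with 17 windows among 32851. The windows lay on chromosome X (Suv39h1), 2 (Suv39h2 and Dnmt3b), 11 (Cbx1), 6 (Cbx3), 15 (Cbx5), 9 (Dnmt1), 12 (Dnmt3a), 3 (Setdb1) and 7 (Trim28). The member windows held between 2 and 47 CpG dinucleotides, and 11 of the 17 held at least 20, the upper quartile of all windows, whose median was 7. These 11 windows belonged to 9 genes, all except Setdb1. The CpG count was highest in a window of Dnmt3a (47) and lowest in the most upstream of the 3 windows of Dnmt1 (2).

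E2F words were searched because E2F factors drive genes of DNA replication, among them partners of DNMT1 at the replication fork. The letters searched on both strands were TTTCCCGC, TTTGGCGC, TTTCGCGC and TTTGCCGC. Of all windows 2.26% held at least 1 of these, and 3 of the 17 member windows did, those of Suv39h1, Cbx3 and Dnmt1. The 4 matches are shown 5′ to 3′ on the gene's strand, the word or its reverse complement in capitals, as the only matches among the members.
Suv39h1, chrX:8074408-8074435, minus strand: gaaggccggcGCGGCAAAcgtgggggcc
Dnmt1, chr9:20952825-20952852, minus strand: gtttccgcgcGCGCGAAAaagccggggt
Dnmt1, chr9:20952574-20952600, minus strand: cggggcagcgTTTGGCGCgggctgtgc
Cbx3, chr6:51470438-51470465, plus strand: ggagccccgcTTTGGCGCgctccgagac
The first capital lay 64 bases before the start in Suv39h1, 219 bases before and 33 bases after it in Dnmt1, and 168 bases before it in Cbx3. The GC box GGGCGG, searched on both strands, was in 14 of the 17 member windows, from all 10 genes, and in 35.7% of all windows. CCAAT was in 5 of the 17 member windows, from 4 of the genes (Suv39h1, Cbx5, Dnmt1 and Setdb1), and in 37.4% of all windows. A match describes the letters and does not show that a factor binds.

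Levels below are log2 of the array's processed signal minus the 75th percentile of that array, so that 0 marks a bright probe of that array, and levels of different genes are not compared because each probe has its own brightness. Differences are knockout minus wild type on that log2 scale, tested by limma with Benjamini-Hochberg adjustment over all features at 0.05. Terf2ip itself had levels of −1.75, −1.65 and −1.81 in wild type, and no knockout array measured it above background, at least 37.7-fold lower (limma adjusted p = 0.00794). The scanner files do not say whether its probe lies inside the deleted exon 3, so how far it checks the deletion is unknown. Between 25393 and 27633 probes per array were well above background. Wild-type array 1 and knockout array 1 shared slide 1, and the other 4 arrays lay on slide 2. Wild-type arrays 2 and 3 stood apart as near-alike: over all features their log2 difference had an SD of 0.25, against 0.83 to 1.25 for every other pair of arrays, and over the members 0.071 against 0.19 to 0.67. The fibroblast markers were well above background on all 6 arrays for 8 of 8 genes, and Ptprc, Itgam and Adgre1 of blood cells and Pecam1 and Cdh5 of endothelium on none. The other endothelial markers were above background on all 6 arrays for Kdr and on 3 for Tek.

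None of the 10 genes passed the threshold in either direction, and limma called 2 of 19657 features (0.0102%) in all. At an unadjusted p under 0.05 the count was 0 of 10 members, against 10.3% of features (5.61% with knockout higher). The difference was above 0 for 9 of the 10, against 55.4% of features and 60.9% of those with a symbol, and only Cbx3 lay below 0 with the probe used; after quantile normalisation, with or without normexp, and in the deposited value table, Trim28 also lay below, which left 8 of 10 above 0. The members' differences ran from −0.17 (Cbx3) to 0.67 (Dnmt3b), with a median of 0.28 beside 0.068 over all features and 0.14 over features with a gene symbol, as all members have, and none reached 2-fold. In 4 genes, Suv39h1, Cbx1, Dnmt1 and Setdb1, the lowest knockout array exceeded the highest wild-type array, against 11.3% of all features and 13.6% of features with a gene symbol. No member had the opposite order, found for 5.89% of features and 4.54% of those with a symbol.

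**Figure D1:**
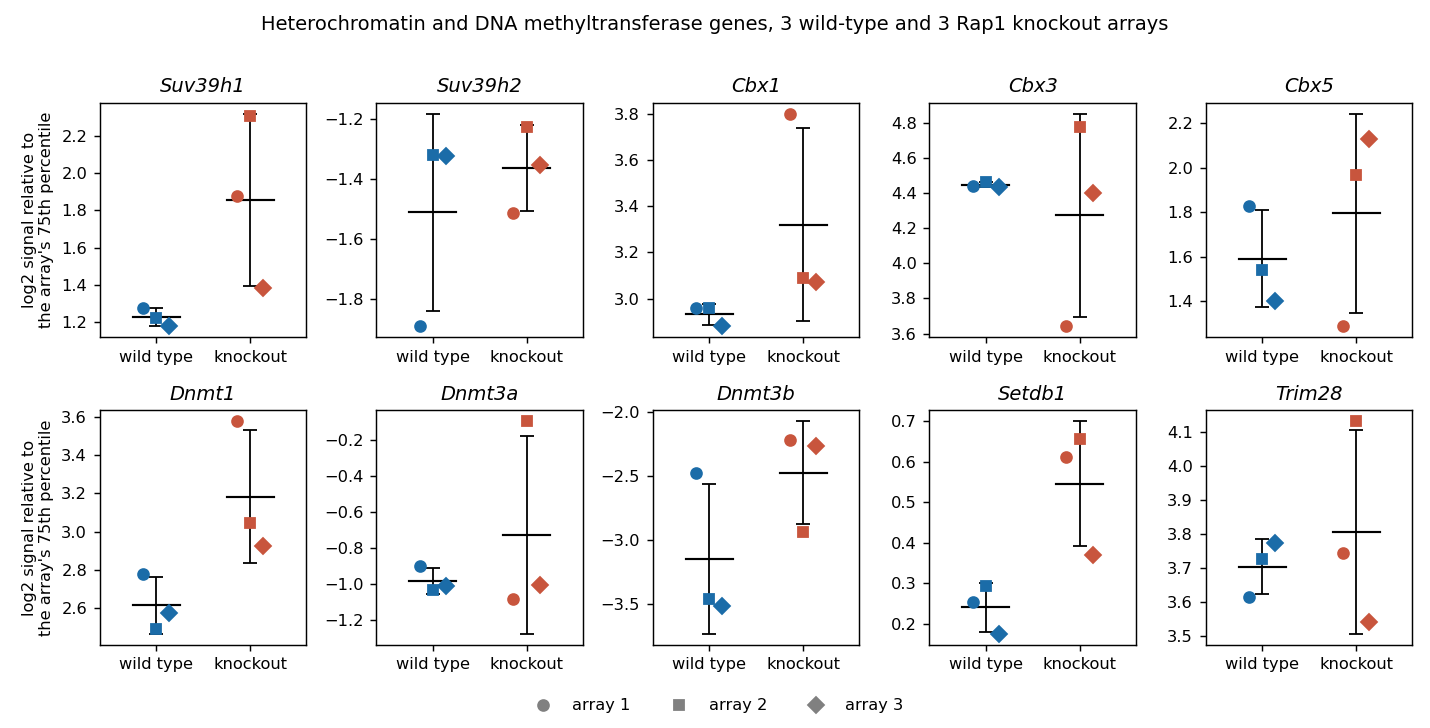
Level of each member (log2 of the signal, scaled to its array's 75th percentile; each panel has its own axis) on 3 wild-type (blue) and 3 Rap1 knockout (red) arrays, with circle, square and diamond for arrays 1, 2 and 3, and mean ± SD in black. The groups do not overlap for Suv39h1, Cbx1, Dnmt1 and Setdb1, and the knockout arrays spread more widely than the wild-type arrays in 8 of the 10 genes. Wild-type arrays 2 and 3 are the near-alike pair.

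Among the H3K9 methyltransferases, Suv39h1 had the smallest p of all members. Its probe (A_51_P510441) read 1.28, 1.22 and 1.18 in wild type and 1.88, 2.31 and 1.38 in knockout. Every knockout array lay above every wild-type array, with knockout array 2 highest and knockout array 3 close to the wild-type values. The means were 1.23 ± 0.049 and 1.86 ± 0.46 (SD, n = 3 each), a difference of 0.63 (SE 0.29, 95% interval −0.051 to 1.31), or 1.55-fold, which did not pass (limma adjusted p = 0.497). Slide 1 gave 0.60 and slide 2 gave 0.64. Leaving out knockout array 2 lowered the difference to 0.40, and leaving out knockout array 3 raised it to 0.87.

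Suv39h2, the second enzyme of the pair, is read by 3 probes. The brightest (A_51_P419169) stood at −1.89, −1.32 and −1.32 in wild type and −1.51, −1.23 and −1.35 in knockout. The groups overlapped, and the lowest value of all was wild-type array 1. The difference was 0.15 (SE 0.25, 95% interval −0.46 to 0.75, limma adjusted p = 0.805). The dimmer probes gave the other sign, −0.22 (SE 0.29) for A_52_P16931 and −0.19 (SE 0.32) for A_52_P187046, so its direction depends on the probe. All 3 probes had their groups overlapping.

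Setdb1, the transposon-silencing H3K9 methyltransferase, read 0.25, 0.29 and 0.18 in wild type and 0.61, 0.66 and 0.37 in knockout (A_52_P609475). All knockout arrays were above all wild-type arrays, by a small margin for knockout array 3. The difference of 0.31 (SE 0.21, 95% interval −0.19 to 0.80), 1.24-fold, did not pass (limma adjusted p = 0.558), and it was 0.36 and 0.28 on slides 1 and 2. With arrays centred on their median its groups overlapped. Trim28, which brings SETDB1 to its targets through zinc-finger proteins, read 3.61, 3.73 and 3.77 in wild type and 3.74, 4.13 and 3.54 in knockout (A_51_P323299). Knockout array 2 was the highest and knockout array 3 the lowest of all 6, so the groups overlapped. Its difference of 0.10 (SE 0.24, 95% interval −0.47 to 0.68, limma adjusted p = 0.861) turned to −0.075 after quantile normalisation.

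Of the HP1 genes, Cbx1 (HP1beta) read 2.96, 2.96 and 2.88 in wild type and 3.80, 3.09 and 3.07 in knockout (A_51_P495012). The groups did not overlap, and knockout array 1 stood well above the other 2 knockout arrays. The difference was 0.39 (SE 0.27, 95% interval −0.26 to 1.04, limma adjusted p = 0.564). Slide 1 gave 0.85, slide 2 gave 0.16, and the difference was 0.15 when knockout array 1 was left out. After quantile normalisation and in the deposited value table the groups of Cbx1 overlapped.

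Cbx3 (HP1gamma) had nearly identical wild-type values of 4.44, 4.46 and 4.44 and scattered knockout values of 3.64, 4.78 and 4.40 (A_51_P160328). Knockout array 1 was the lowest and knockout array 2 the highest of the 6. The SD was 0.014 in wild type and 0.58 in knockout (n = 3 each). The difference was −0.17 (SE 0.32, 95% interval −0.95 to 0.60, limma adjusted p = 0.824), −0.80 on slide 1 and 0.14 on slide 2. A second probe (A_51_P117162) had the same order of knockout arrays, 1.12, 2.04 and 2.01 against 1.95, 1.95 and 1.85 in wild type, and a difference of −0.19 (SE 0.30). On knockout array 1 the paralogs thus deviated in opposite directions from their own 6-array means, by 0.68 for Cbx1 and −0.72 for Cbx3.

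Cbx5 (HP1alpha) read 1.83, 1.54 and 1.40 in wild type and 1.29, 1.97 and 2.13 in knockout (A_52_P676573). Knockout array 1 was the lowest of all 6 and the other knockout arrays were the highest, so the groups overlapped. The difference was 0.21 (SE 0.30, 95% interval −0.50 to 0.91, limma adjusted p = 0.764), −0.54 on slide 1 and 0.58 on slide 2. The other 2 probes gave 0.16 (SE 0.25, A_52_P547538) and 0.20 (SE 0.27, A_52_P544760), of the same sign and with overlapping groups. Their order of arrays was not that of the brightest probe. On both, wild-type arrays 2 and 3 were the lowest, and wild-type array 1 lay above knockout arrays 1 and 2.

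**Figure D2:**
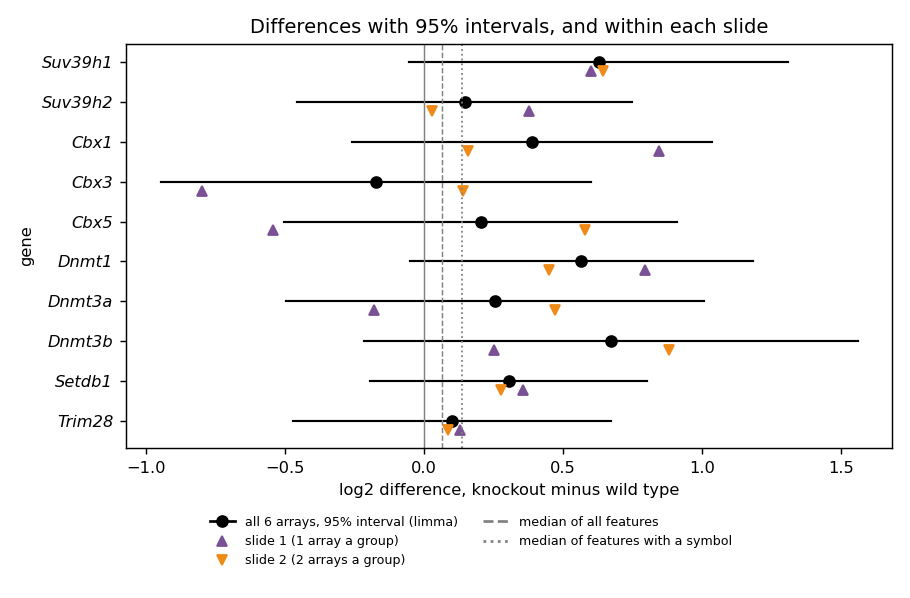
Difference between knockout and wild type (log2) of each member: black points and lines are the difference over all 6 arrays with its 95% interval from limma, triangles the difference within slide 1 (1 array a group) and slide 2 (2 arrays a group), and the dashed and dotted lines the medians of all features (0.068) and of features with a symbol (0.14). Every interval includes 0, and the slides differ in sign for Cbx3, Cbx5 and Dnmt3a.

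Among the DNA methyltransferases, Dnmt1 read 2.78, 2.49 and 2.58 in wild type and 3.58, 3.05 and 2.92 in knockout (A_51_P195573). All knockout arrays were above all wild-type arrays, knockout array 1 by the most. The means were 2.62 ± 0.15 and 3.18 ± 0.35 (SD, n = 3 each), a difference of 0.57 (SE 0.26, 95% interval −0.050 to 1.18), or 1.48-fold, which did not pass (limma adjusted p = 0.497). Slide 1 gave 0.80, slide 2 gave 0.45, and the difference was 0.37 when knockout array 1 was left out. With slide as a block the unadjusted p was 0.0262 and the adjusted p 0.234.

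Dnmt3b, a methyltransferase that adds methylation to unmethylated DNA and acts at pericentromeric repeats, had the largest difference of the members but overlapping groups. It read −2.48, −3.46 and −3.51 in wild type and −2.22, −2.94 and −2.27 in knockout (A_51_P341540). Wild-type array 1 lay among the knockout values, while wild-type arrays 2 and 3, the near-alike pair, were the lowest. The difference was 0.67 (SE 0.37, 95% interval −0.21 to 1.56, limma adjusted p = 0.513), 0.25 on slide 1 and 0.88 on slide 2. It was 1.01 without wild-type array 1 (limma adjusted p = 0.205).

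Dnmt3a, the related enzyme, is read by 3 probes that carry accessions of 2 transcripts. The brightest (A_52_P76146) read −0.90, −1.03 and −1.01 in wild type and −1.08, −0.10 and −1.01 in knockout. Only knockout array 2 stood above the wild-type values, and the difference was 0.26 (SE 0.32, 95% interval −0.50 to 1.01, limma adjusted p = 0.721) with it and −0.061 without it. The other 2 probes share an accession and disagreed in sign. A_52_P169048 read −1.76, −1.97 and −1.91 against −1.75, −0.76 and −1.25, a difference of 0.63 (SE 0.30, limma adjusted p = 0.508 over all probes) with no overlap, although knockout array 1 exceeded wild-type array 1 by 0.012 only. A_52_P30497 read −2.15, −2.85 and −3.10 against −2.55, −3.05 and −3.10, a difference of −0.20 (SE 0.32). In the fit over 25520 probes, none of the 17 member probes passed, against 0.0235% of all probes.

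**Figure D3:**
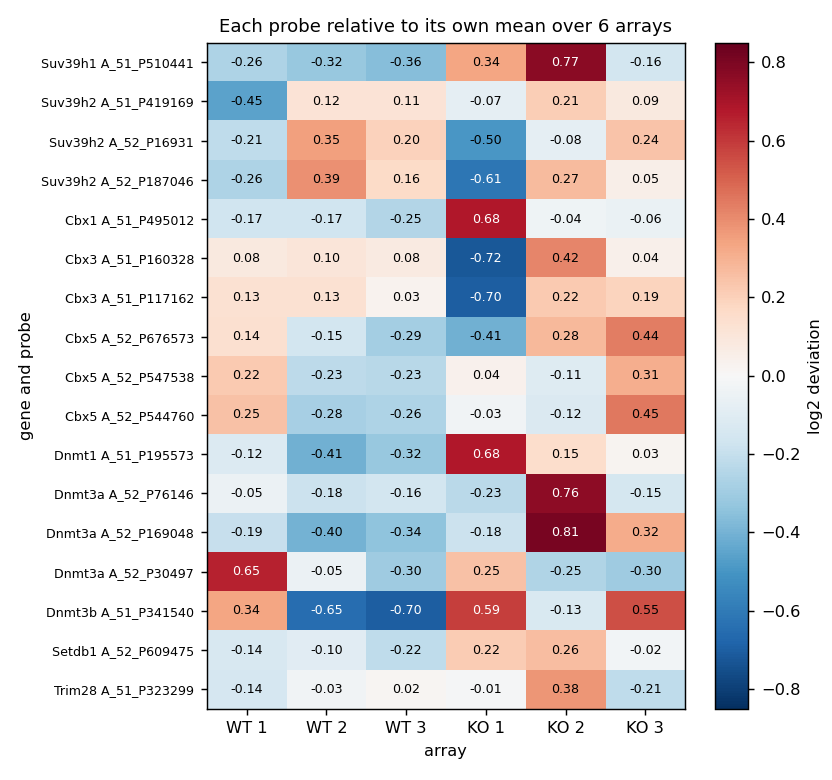
Deviation (log2) of each of the 17 member probes from its own mean over the 6 arrays, with wild-type (WT) and knockout (KO) arrays in columns. Probes of Cbx3 and Cbx5 keep their sign of difference among themselves, those of Suv39h2 and Dnmt3a do not, and knockout array 1 is high for Cbx1 and Dnmt1 and low for both probes of Cbx3.

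The arrays of a group did not carry the members alike. Each gene was set against its own 6-array mean, and the median deviation over the 10 genes was −0.13, −0.16 and −0.23 on wild-type arrays 1, 2 and 3 and 0.10, 0.27 and 0.0010 on knockout arrays 1, 2 and 3. The highest of the 6 values was on a knockout array for every member, on array 2 for 6 genes, array 1 for 3 and array 3 for 1. The lowest value was on a wild-type array for 6 genes and on knockout array 1 for 3. These counts were not made over all features, so they have no background here and are not read as a trait of the members. The SD between arrays was larger in knockout than in wild type for 8 of the 10 members, with medians of 0.41 and 0.076, and for 71.4% of all features, with medians of 0.43 and 0.25. The wild-type SD includes the near-alike arrays 2 and 3. Over all features, wild-type array 1 differed from these by an SD of 1.01 and 1.02, against 0.89 to 1.09 between knockout arrays. Over the members these values were 0.39 and 0.41, against 0.49 to 0.67.

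The genes most like Suv39h1 over the 6 arrays, by the root mean square difference of log2 deviations among 11877 genes with a symbol, were Tspo (0.042), a protein of the outer mitochondrial membrane, Spo11 (0.070), the meiotic double-strand break enzyme, and Mrpl14 (0.073), a mitochondrial ribosomal protein. Their differences were 0.60 for Tspo, 0.61 for Spo11 and 0.59 for Mrpl14. None of the 3 passed the limma threshold, and they were ranked over the same 6 arrays.

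Other genes of these pathways were taken from 6 fixed lists, of which 46 of 51 genes were tested. None of the 46 passed (0.0102% of all features), 4 were at an unadjusted p under 0.05 by limma (10.3% of all features were), and their differences were above 0 for 25 and below 0 for 21 with a median of 0.078, which lies below the 0.14 of features with a symbol. The groups did not overlap for 6 of the 46, 3 higher and 3 lower in knockout. The shares were 11.3% and 5.89% of all features, and 13.6% and 4.54% of those with a symbol. Beside features with a symbol, the count higher was thus below the background and the count lower near it.

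Among partners of H3K9 methylation, 7 of 9 were tested, 6 had a difference above 0 and the median was 0.24. Wiz, a zinc-finger partner of the G9a and GLP enzymes, read 2.74, 2.41 and 2.43 in wild type and 3.23, 3.13 and 2.83 in knockout. Its groups did not overlap, and its difference of 0.54 (SE 0.23) did not pass (limma adjusted p = 0.492). Ehmt1, which encodes GLP, differed by 0.36 (SE 0.24) with overlapping groups. Among enzymes that remove H3K9 methylation, 7 of 8 were tested, 5 had a difference below 0 (4 with arrays centred on their median) and the median was −0.11. Kdm4d differed by 0.86 (SE 0.28, limma adjusted p = 0.474) with all knockout arrays higher, and Phf8 by −0.46 (SE 0.23, limma adjusted p = 0.506) with all lower.

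Of the 10 genes for H4K20 methylation and heterochromatin assembly, 5 lay above 0 and 5 below. Chaf1a, the large subunit of the chromatin assembly factor that acts at the replication fork and binds HP1, read 2.84, 2.50 and 2.57 in wild type and 3.50, 3.57 and 2.85 in knockout. The groups just failed to overlap, and the difference of 0.67 (SE 0.28) did not pass (limma adjusted p = 0.486). Kmt5a, the H4K20 monomethyltransferase, differed by 0.39 (SE 0.30) with overlapping groups.

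Of the 11 cofactors and readers of DNA methylation, 6 lay above 0 and 5 below, which turned to 5 and 6 after quantile normalisation. Dnmt3l, the catalytically inactive partner of DNMT3A and DNMT3B, read −4.30, −4.43 and −4.67 in wild type and −5.39, −5.23 and −5.43 in knockout. Every knockout array lay below every wild-type array, and the difference of −0.88 (SE 0.22) had an unadjusted p of 0.00539 and did not pass (limma adjusted p = 0.370). Uhrf1, which guides DNMT1 to half-methylated DNA, differed by 0.45 (SE 0.28), with knockout array 3 among the wild-type values. Among genes of DNA demethylation, 4 of 6 were tested, 3 had a difference below 0 and the median was −0.99, or −0.44 after normexp and quantile normalisation. Tet2, an enzyme that oxidises methylcytosine, differed by −0.98 (SE 0.41, limma adjusted p = 0.487) with all knockout arrays lower, and Apobec1, a cytidine deaminase, by −1.01 (SE 0.39, limma adjusted p = 0.486) with overlapping groups, 0.16 on slide 1 and −1.59 on slide 2. Of the 7 genes of Polycomb repressive complex 2, which methylates H3K27, 5 lay above 0 and 2 below with a median of 0.21, and 4 and 3 after quantile normalisation with a median of 0.030. Ezh1, a catalytic subunit, differed by 0.39 (SE 0.27) and Eed, which reads the mark, by −0.34 (SE 0.29).

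**Figure D4:**
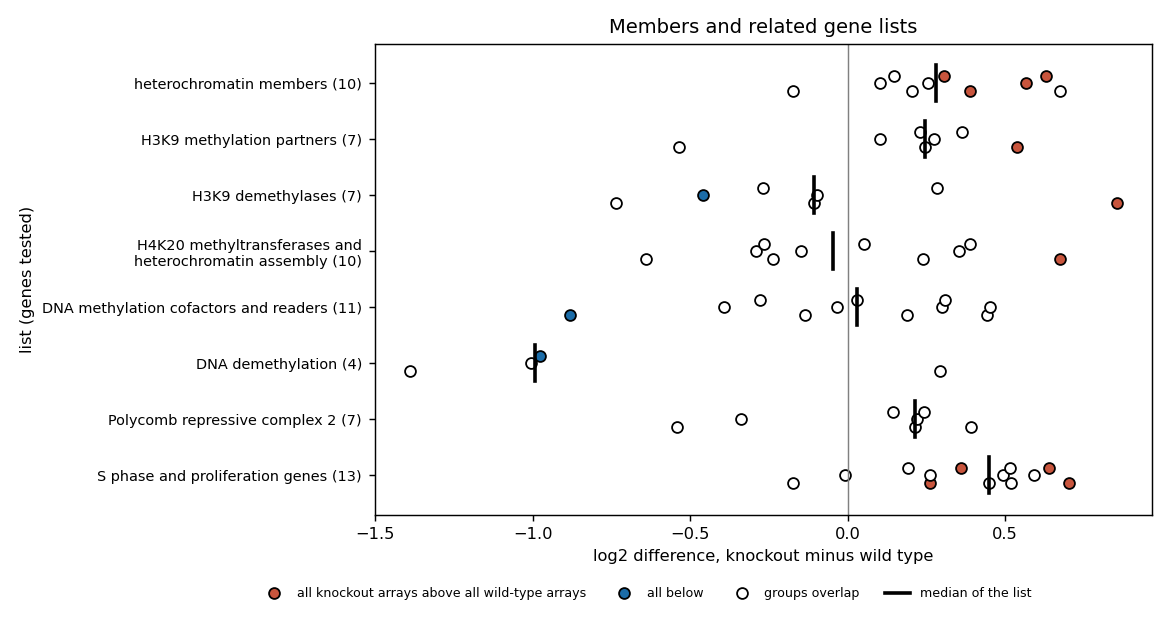
Difference between knockout and wild type (log2) of each tested gene in the members and in 7 lists, with filled points where all knockout arrays lie above (red) or below (blue) all wild-type arrays and a bar at each list's median. The medians are 0.28 for the members, −0.99 for DNA demethylation and 0.45 for the S phase genes, and no point passed the limma threshold.

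Genes of S phase and proliferation were measured beside the members because DNMT1, UHRF1 and CAF-1 act at replicating DNA. Of 13 tested, none passed and 2 were at an unadjusted p under 0.05 by limma (10.3% of all features were), Cdc6 (0.64, SE 0.20) and Ccne1 (0.70, SE 0.25). The difference was above 0 for 11 of the 13, against 60.9% of features with a symbol, with a median of 0.45 (0.25 after quantile normalisation). The groups did not overlap, with knockout higher, for 4 of the 13, against 13.6% of features with a symbol. Their median deviation was −0.053, −0.29 and −0.21 on wild-type arrays 1, 2 and 3 and 0.32, 0.28 and 0.012 on knockout arrays 1, 2 and 3. Their part in the members' differences was not tested.

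No cell type marker tested passed the limma threshold, and at an unadjusted p under 0.05 were 1 of 8 fibroblast, 2 of 5 epithelial, 0 of 1 endothelial and 0 of 3 pluripotent cell markers. The summed level of the 8 fibroblast markers was 8.78 to 8.99 in wild type and 8.14 to 8.86 in knockout, which overlap, and the groups did not overlap, with knockout lower, for 3 of them. These were Thy1 (−2.64, SE 1.12), Pdgfra (−2.38, SE 0.81) and Fn1 (−0.31, SE 0.22). That order was found for 4.54% of features with a symbol. Knockout arrays 1, 2 and 3 read −2.22, 1.92 and 1.99 for Thy1 and −1.48, 1.99 and 0.12 for Pdgfra. Slide 1 gave −6.01 for Thy1 and −4.40 for Pdgfra, and slide 2 gave −0.96 and −1.36. Of the 8, 5 differed below 0 and 3 above. Of the 6 epithelial markers 5 were well above background on all arrays, and their summed level was 1.06 to 1.64 in wild type and 2.02 to 3.70 in knockout. Krt18, whose signal makes up most of that sum, differed by 1.53 (SE 0.48), while Krt8 differed by −1.74 (SE 0.72), 3 of the 5 tested lay below 0, and their median was −0.065. For the 5 pluripotent cell markers, of which 2 were above background on all arrays and Zfp42 on none, the summed level was −1.94 to −1.68 and −1.56 to −1.16. Dppa5a, the brightest of these, differed by 0.41 (SE 0.28) with overlapping groups. For the 4 endothelial markers, of which 1 was above background on all arrays, the summed level was −4.49 to −2.22 and −5.39 to −2.17. For the 3 blood markers with a probe it was −7.74 to −6.37 and −7.88 to −7.38. The part of these markers in the members' differences was not tested, and fewer cells of a type and less RNA per cell cannot be told apart in bulk RNA.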

How the data were processed

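Scanner output was deposited as intensity, written by version 10.5.1.1 of Agilent's Feature Extraction software, per the file headers, and its processed signal is already background-corrected. A deposited table gives log2 values for the same 6 arrays. The submitters' processing notes name limma without its settings. The value table's knockout columns 1, 2 and 3 matched scanner files 2, 3 and 1 of the same group.

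Control spots (1639 of 45018) and outlier spots (74 to 120 per array) were left out, no spot was saturated, and spots of a probe were averaged. Main values were log2 processed signal minus each array's 75th percentile. Probes that stood well above background throughout either group were kept (25520 of 41174). Accessions were matched to a GRCm38.p6 gene table (23374 probes); the files name build mm8, so the table's coordinates were not used for probes. A gene was its kept probe of highest mean. Groups were compared with limma 3.58.1 in R 4.3.3 (lmFit, eBayes, no block), tested on simulated data. The number of arrays limits the precision. For Terf2ip, the fold is a bound: the wild-type mean against a floor set on each knockout array, the dimmest signal still well above background or, if higher, the probe's own signal. Summed marker levels are log2 of the summed signals on the same scale.

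Named genes were Terf2ip, all members with every probe, the 2 genes of smallest p in each related list, and the 3 genes most like the member of smallest p; the S phase and marker genes named outside that rule were chosen after their values were seen. The members and lists were chosen with earlier results of these data known. Same-numbered arrays were not paired (correlations of deviations 0.01, 0.05 and −0.08). The 18 alternatives changed background correction, scaling, filter, probe choice, variance model, blocks or arrays. Protein sequences were not used here.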

Additional observations from a re-analysis of the deposited data

How the results depend on the processing

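No member gene, member probe or related-list gene passed limma's adjusted threshold in any of the alternatives run (18, or 17 for probes), and at an unadjusted p under 0.05 between 0 and 2 members did. The count of features called, 2 in the fit reported, was 0 with probes above background on all 6 arrays, 4 with the mean of a gene's probes, 0 with slide as a block, 0 with the replicate block, 0 with wild-type arrays 2 and 3 averaged, 302 on slide 2 alone, and 0 to 64 with each array left out (64 when wild-type array 1 was dropped, 0 when wild-type array 2 or 3 or knockout array 1 was); the unadjusted counts ran from 692 to 4355. The replicate block, whose numbers do not pair the arrays, changed no member's call. The members' median of 0.28 was 0.39 with arrays centred on their median, which moved the median of all features from 0.068 to 0.17, and 0.18 to 0.39 with each array left out (0.18 without knockout array 2, 0.39 without knockout array 3). That of all features was −0.081 with no filter on dim probes. Settings that changed only the filter, the variance model or the blocks left every member's difference as it was, so no sign could change there. The mean of probes could change only genes read by several probes. Of 180 differences of members, with these fixed ones counted, 171 kept their sign. The 9 that did not were Trim28 at −0.082 with normexp, −0.075 with quantile normalisation, −0.098 in the value table and −0.061 without knockout array 2, Suv39h2 at −0.090 with the mean of probes and −0.043 without wild-type array 1, Cbx3 at 0.14 on slide 2 alone and 0.14 without knockout array 1, and Dnmt3a at −0.061 without knockout array 2; the cause was not tested. With each array left out the range was −0.061 to 0.23 for Trim28, −0.043 to 0.24 for Suv39h2, −0.42 to 0.14 for Cbx3 and −0.061 to 0.43 for Dnmt3a. Members with all knockout arrays higher numbered 3 under normexp, quantile or median scaling and in the value table. They numbered 7 on slide 2 alone and 4 or 5 with an array left out. The share of all features was 11.3% in the fit reported and at most 13.8% under the first 4 settings. It was 32.01% on slide 2 alone, where groups hold 2 arrays, and 12.2% to 26.4% with an array left out (26.4% without wild-type array 1). The counts of 5 and 7 thus came with a higher background. Suv39h1 and Dnmt1 were among these members under the first 4 settings. The other settings kept the values of these genes or dropped or averaged arrays, so they could not make separated groups overlap. Without knockout array 2, Cbx3 had all knockout arrays lower, and the share of all features with that order is not given here. Adjusted p-values ran from 0.236 to 0.945 for Suv39h1, 0.234 to 0.945 for Dnmt1 and 0.201 to 0.945 for Dnmt3b. All 17 member probes were above background on all arrays, but dim ones still moved with the processing. The normexp setting changes background treatment and scaling together. The dimmest, A_52_P187046 of Suv39h2, went from −0.19 to −0.052 with quantile normalisation alone, 0.023 with normexp and 0.022 in the value table. Dnmt3b fell from 0.67 to 0.52 in both settings.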
